A study of Sus scrofa with 16 samples.

Results

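The accessible chromatin of pig liver was compared between birth and the suckling stage, from the consensus peak list of newborn liver and that of suckling liver on chromosomes 1 to 18. A peak is a stretch of DNA cut more often than its surroundings by the Tn5 transposase in an assay for transposase-accessible chromatin (ATAC-seq), and so marks open chromatin. The newborn list held 115504 peaks and the suckling list 135635, together 251139 of the 798988 peaks in the 8 lists of the whole series. A peak was called newborn-only or suckling-only when it shared not 1 bp with a peak of the other list, which gave 27986 newborn-only and 46247 suckling-only peaks and left 87518 newborn and 89388 suckling peaks with an overlap. The liver came from female crossbred domestic pigs, which the study's methods describe as full sibs of a Berkshire and Tibetan cross. The newborn pigs are labelled as day 0 and given as 1 day old in the methods, and the suckling pigs were 28 days old. Each age had 2 pigs, different animals at each age, and the labels give no difference between the groups other than age. Whole snap-frozen liver was used, so each list mixes the nuclei of hepatocytes, blood-forming cells, immune cells and stroma, and fewer cells of a type and less open chromatin per cell cannot be told apart. Because the replicates of an age had been merged into 1 list of calls, the presence of a peak counted as 1 sample an age and was not tested between ages. The value of each replicate at a listed peak is given as a description, and no test was run on it either. Intervals are 95% Wilson intervals that cover counting error only, and the lack of a call in one list does not show that the site was closed.

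In mammals the liver is the main site of blood formation before birth, and it hands this role to the bone marrow around and after birth. Over the same weeks hepatocytes, the main epithelial cells of the organ, pass from nutrients delivered by the placenta to fat-rich milk, and they take up bile acid transport, drug metabolism and growth hormone responses. Lymphocytes and resident macrophages, the Kupffer cells, settle in the tissue. The genes of these processes were therefore read from 26 lists that hold 547 entries, of which 516 matched a protein-coding gene (PCG) on chromosomes 1 to 18. Genes on chromosome X, such as GATA1 and ALAS2 of the red cell lineage and OTC of the urea cycle, were outside the comparison. Of the 19 hepatocyte identity genes measured, 18 had a promoter peak at both ages, among them TTR, APOA1, APOB and SERPINA1. Over all PCGs with a promoter peak at either age, 13532 of 14556 had one at both. The count is thus near that of all genes and is only a weak check of the labelled tissue.

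Several of the sites compared are shown first, each at the promoter of a gene known from a cell type or a stage. They are examples, and some are weak peaks. Sequences are the plus strand of Sscrofa11.1 from RefSeq, 5′ to 3′, limited to bases free of annotated exons, and capitals mark letters that match one of the 24 motif words searched on both strands. The first 3 are newborn-only peaks at NFE2, a transcription factor of red cells and platelets, AHSP, the chaperone of alpha globin, and S100A9, a calcium-binding protein of neutrophils.

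NFE2, chr5:19497748-19497947: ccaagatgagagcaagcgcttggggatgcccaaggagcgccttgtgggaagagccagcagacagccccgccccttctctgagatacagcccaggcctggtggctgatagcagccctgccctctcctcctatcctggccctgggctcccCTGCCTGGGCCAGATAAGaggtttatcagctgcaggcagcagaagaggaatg
AHSP, chr3:17060344-17060543: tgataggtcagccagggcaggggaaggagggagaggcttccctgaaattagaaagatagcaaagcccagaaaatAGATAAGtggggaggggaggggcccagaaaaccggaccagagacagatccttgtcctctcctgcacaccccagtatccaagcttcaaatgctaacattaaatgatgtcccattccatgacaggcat
S100A9, chr4:96239247-96239446: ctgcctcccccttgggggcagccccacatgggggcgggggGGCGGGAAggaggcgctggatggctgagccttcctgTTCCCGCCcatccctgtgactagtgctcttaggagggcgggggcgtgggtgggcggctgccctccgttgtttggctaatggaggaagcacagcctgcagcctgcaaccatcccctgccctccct

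The next 4 are suckling-only peaks at CD2, an adhesion receptor of T and natural killer (NK) cells, TIMD4, a phosphatidylserine receptor of resident macrophages, ALB, which encodes serum albumin, and IGF2, a growth factor of fetal and postnatal tissue.

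CD2, chr4:103977082-103977281: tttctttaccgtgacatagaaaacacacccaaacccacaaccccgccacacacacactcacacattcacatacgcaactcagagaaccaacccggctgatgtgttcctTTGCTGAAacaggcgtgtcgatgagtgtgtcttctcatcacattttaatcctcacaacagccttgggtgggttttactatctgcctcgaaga
TIMD4, chr16:66253372-66253571: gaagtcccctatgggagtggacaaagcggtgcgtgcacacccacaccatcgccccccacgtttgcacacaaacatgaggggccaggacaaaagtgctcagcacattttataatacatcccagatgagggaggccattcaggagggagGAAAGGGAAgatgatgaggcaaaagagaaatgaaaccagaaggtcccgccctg
ALB, chr8:69643227-69643426: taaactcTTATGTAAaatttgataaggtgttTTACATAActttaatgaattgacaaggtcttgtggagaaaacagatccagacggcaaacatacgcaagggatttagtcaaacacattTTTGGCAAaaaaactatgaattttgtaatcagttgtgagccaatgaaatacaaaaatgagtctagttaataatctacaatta
IGF2, chr2:1496418-1496617: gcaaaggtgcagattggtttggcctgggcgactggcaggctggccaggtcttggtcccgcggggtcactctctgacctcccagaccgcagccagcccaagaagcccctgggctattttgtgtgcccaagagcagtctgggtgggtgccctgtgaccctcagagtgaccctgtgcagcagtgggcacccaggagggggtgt

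The NFE2 stretch held the GATA word AGATAAG within a match to the composite TAL1-GATA word, in which CTG and AGATAA are spaced by 7 or 8 bases, so the capitals there cover both overlapping words. AHSP held AGATAAG as well. Of 18725 PCG promoters, taken as the 200 bases before the start site, 1.40% held AGATAAG and 0.315% the composite word. S100A9 held the E2F word TTCCCGCC on each strand (2.38% of promoters). CD2 held the CEBP word TTGCNNAA (6.38%) and TIMD4 the IRF word GAAANNGAA (5.04%). ALB held the D-box word TTATGTAA on each strand (0.518%) and a CEBP word. No word of the 24 was found in the IGF2 stretch. None was found either in stretches taken in the same way at CXCR2, LTF, CD3D and POU2AF1, which are not shown. A match describes the letters in a window and is not a site of binding.

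Newborn-only peaks made up 24.2% (24.0 to 24.5) of the newborn list and suckling-only peaks 34.1% (33.8 to 34.3) of the suckling list. They were narrower and weaker than peaks with an overlap. The median width was 274 bp for newborn-only and 248 bp for suckling-only peaks against 508 and 459 bp for peaks with an overlap. Strength was read as the −log10 p given for each peak, which is the lower of the values of its 2 replicates, and its median was 5.01 and 4.75 for the peaks of 1 age against 9.66 and 9.61 for the others. Reproducibility was read from the irreproducible discovery rate (IDR), and 522 newborn-only peaks (1.87%) and 2101 suckling-only peaks (4.54%) had an IDR of 0.05 or lower, against 24.9% and 49.1% of peaks with an overlap. The peaks of 1 age thus came mostly from the lower part of each list. In the strongest decile of the lists 0.398% of newborn and 0.641% of suckling peaks had no counterpart, and in the weakest decile 48.6% and 68.4% had none.

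**Figure D1:**
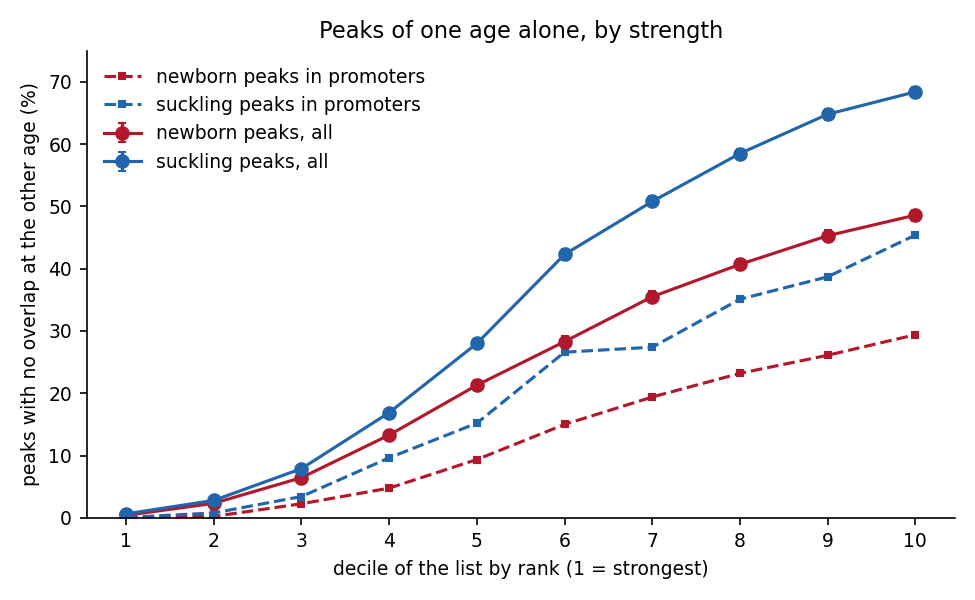
Share of peaks (%, y axis) with no overlap at the other age by decile of each list from strongest (1) to weakest (10), for all peaks (solid lines with 95% Wilson intervals) and for peaks in promoters (dashed lines). The share climbed from 0.398% to 48.6% in newborn liver and from 0.641% to 68.4% in suckling liver, and promoter peaks stayed below all peaks, at 29.4% and 45.4% in the weakest decile.

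The position of the peaks of 1 age was alike at both ages. Promoters, defined as 2.2 kb upstream to 500 bp downstream of any annotated start site, held 5.52% of newborn-only and 4.94% of suckling-only peaks but 18.6% and 18.8% of peaks with an overlap. Introns held 48.0% and 48.9%, and intergenic sequence 38.2% and 38.1%. Most changes in the lists therefore lay away from promoters, at a median of 31.0 and 32.1 kb from the nearest start site. Among chromosomes the newborn-only share ran from 21.1% on chromosome 12 to 27.2% on chromosome 11, and the suckling-only share from 29.2% to 37.1% on the same chromosomes. Of newborn-only peaks 16.8% lay within 500 bp of a suckling peak, and of suckling-only peaks 12.4% lay within 500 bp of a newborn peak.

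The replicates also differed in the level of their values. Newborn replicate 1 had a median −log10 p of 24.9 and replicate 2 of 8.66, while the suckling replicates had 7.78 and 11.0. The rank correlation of the replicate values over peaks was 0.518 in newborn and 0.680 in suckling liver, given as descriptions over peaks of 1 pair of libraries. An IDR of 0.05 or lower was reached by 19.3% of newborn and 33.9% of suckling peaks. The read depth of each library, which the study gives but the peak lists do not hold, was not used here, and its part in the result was not tested. To compare lists of equal length, the 20131 weakest suckling peaks were left out. Then 33979 newborn peaks (29.4%) and 32804 suckling peaks (28.4%) were without overlap, and the excess on the suckling side turned into a small excess on the newborn side. The order of the counts therefore moved with the length of the lists, and the list shares below are given at both lengths.

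Of 18725 PCGs, 14556 had a promoter peak at one age or the other, and 13532 of them at both. A promoter peak was called in newborn liver alone for 395 PCGs (2.71%) and in suckling liver alone for 629 (4.32%), of which 59 and 152 carry only a provisional locus name. With lists of equal length the numbers were 750 (5.20%) and 484 (3.36%) of 14411. Of the 629 suckling genes, 484 kept their state, while the 395 newborn genes could not lose theirs because suckling peaks alone were left out. Of the 355 genes that joined the newborn group at equal length, 246 (69.3%) had a suckling promoter peak whose replicate summits lay over 100 bp from the summit listed for it. The median width of the suckling peak over the 355 genes was 1015 bp. Most genes with a promoter peak of 1 age had another promoter peak at the other age, 1090 of 1456 genes with a newborn-only promoter peak and 1496 of 2090 with a suckling-only one. Each peak was also linked to PCGs by overlap with the promoter or gene body, or else by the nearest start site within 50 kb of the summit. Of 101171 newborn links 22.6% were to newborn-only peaks, and of 117674 suckling links 32.0% were to suckling-only peaks, or 27.7% and 26.5% at equal length. These are the shares against which the gene lists are set below.

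Red cell genes held newborn-only peaks. Of 19 erythroid genes with a promoter peak at either age, 4 had one in newborn liver alone and 0 in suckling liver alone. Among them were SLC4A1, the anion exchanger of the red cell membrane, AHSP and GFI1B, a repressor in red cell and megakaryocyte development. The SLC4A1 peak (chr12:18957475-18957986) had −log10 p values of 33.7 and 9.88 in the newborn replicates. The AHSP peak (chr3:17060208-17060603) had 42.1 and 8.68. In both the first replicate was far above the second, and the GFI1B peak (chr1:272699624-272699771) was low in both, at 5.43 and 6.30. None of the 4 reached an IDR of 0.05, the lowest being 0.117 at SLC4A1. NFE2 kept other promoter peaks at day 28, but its newborn-only peak (chr5:19497730-19498001), 95 bp from a start site, had 34.0 and 21.7 and was the fifth strongest newborn-only promoter peak at a named gene. Of the linked peaks of erythroid genes, 62 of 173 newborn links (35.8%, 29.1 to 43.2) were newborn-only against 22.6% over all genes, and 39 of 150 suckling links (26.0%, 19.6 to 33.6) were suckling-only against 32.0%. At equal length the values were 41.0% and 22.5%. The promoter counts turned when an IDR of 0.05 or lower was required in both lists, with 0 erythroid genes in newborn liver alone and 3 in suckling liver alone, against 976 and 3101 PCGs.

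Many of the linked newborn-only peaks of this lineage lay at BCL11A, the repressor that silences fetal globin in species with a globin switch, and at ANK1, which anchors the red cell skeleton to the membrane. BCL11A had 12 newborn-only among 26 newborn linked peaks and 1 suckling-only among 15 suckling ones, and the strongest of the 12 was a promoter peak (chr3:81197423-81197683) of 25.8 and 17.2. SLC4A1 had 4 of 5 against 0 of 1, its promoter peak included. The strongest of them at SLC4A1, an intergenic peak 7.38 kb from the start site (chr12:18950161-18950775), had 77.8 and 14.3 and an IDR of 0.0501, and the strongest at ANK1, an intronic peak (chr17:10871621-10872388), had 68.2 and 20.3 and an IDR of 0.0398. SPTB, which encodes beta spectrin, went the other way, with 1 of 8 newborn and 7 of 14 suckling linked peaks without overlap. GYPC, EPOR, the erythropoietin receptor, and FECH, the last enzyme of haem synthesis, differed by at most 1 peak between ages. KLF1 had 1 linked peak at each age, both with an overlap, and no promoter peak.

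Neutrophil genes behaved alike at their promoters. Of 13 granulocyte genes with a promoter peak at either age, 6 had one in newborn liver alone and 0 in suckling liver alone: PRTN3, a protease of the granules, S100A9 and S100A12, LTF, which encodes lactoferrin, CXCR2, the receptor for neutrophil chemokines, and MMP9, a gelatinase. S100A9 (chr4:96238779-96239550) had −log10 p values of 19.9 and 7.35, and LTF (chr13:29445419-29445961) had 13.6 and 9.67. CXCR2 had 9.63 and 4.97 and MMP9 had 4.05 and 11.7. S100A12 and PRTN3 lay near the end of the list, at 4.86 and 6.89 and at 5.16 and 3.80. These are faint peaks, and 0 of the 6 reached an IDR of 0.05. The rest of the list did not follow the promoters, since 10 of 55 newborn links (18.2%) and 17 of 66 suckling links (25.8%) were of 1 age, both below the shares over all genes, or 21.8% and 23.7% at equal length. With an IDR of 0.05 or lower in both lists the promoter counts turned here too, to 0 in newborn and 3 in suckling liver alone. LTF itself had 8 suckling-only peaks among 10 beside 1 newborn-only peak among 3.

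T and NK cell genes held suckling-only peaks. Of 20 genes with a promoter peak at either age, 5 had one in suckling liver alone and 0 in newborn liver alone, among them the T cell receptor chains CD3D, CD3E and CD3G and CD2. CD3D and CD3G are neighbours and share 1 peak (chr9:45645118-45645363), which had values of 10.3 and 18.5 in the suckling replicates and an IDR of 0.0178. CD2 (chr4:103976949-103977385) had 10.7 and 12.9 and an IDR of 0.0407. The replicates differed by less at CD2 than at the shared peak, and CD3E, at 8.12 and 5.59, was the weakest of the 5. At equal length the same 5 genes had a suckling-only promoter state. Among all linked peaks, 90 of 191 suckling links (47.1%, 40.2 to 54.2) were suckling-only against 32.0% over all genes, and 22 of 119 newborn links (18.5%, 12.5 to 26.4) were newborn-only against 22.6%. The shares were 43.7% and 23.5% at equal length. With an IDR of 0.05 or lower in both lists 10 genes of the list had a promoter peak in suckling liver alone and 0 in newborn liver alone. At that setting the suckling side was also the larger over all PCGs. Antigen presentation genes had 11 and 1, xenobiotic genes 11 and 1, and cholesterol genes 1 and 2. The lean was thus not particular to T and NK cell genes.

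Of the 19 T and NK cell genes with at least 5 linked peaks, 18 had more suckling-only than newborn-only peaks, and 0 had fewer. Over all 12440 such genes 6783 had more and 3024 had fewer. Both counts are for the full lists, of which the suckling list is the longer. The balance of a gene, its suckling-only minus its newborn-only peaks over all its linked peaks, had a median of 0.250 in this list against 0.056 over 12440 genes, and of 0.167 against 0.000 at equal length. CD247, the zeta chain of the T cell receptor, had 14 suckling-only peaks among 26 and 5 newborn-only among 16. BCL11B, a transcription factor of T cell commitment, had 11 of 15 against 2 of 5. UBASH3A, a regulator of receptor signalling, had 5 of 11 against 0 of 6. The strongest at CD247 (chr4:83495488-83495772), in an intron 1.25 kb from a start site, had 31.9 and 22.9 with an IDR of 0.0135, and the strongest at BCL11B (chr7:120310609-120311361), intergenic, had 17.2 and 19 with an IDR of 0.0115. LEF1 was the member without a difference, with 3 peaks of 16 at each age.

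B cell genes had the same sign with fewer peaks. MS4A1, which encodes CD20, RAG1, the recombinase of antigen receptor genes, and POU2AF1, a coactivator of B cells, had a promoter peak in suckling liver alone, and 0 of the 11 genes had one in newborn liver alone. RAG1 had 7.17 and 9.39, POU2AF1 5.04 and 5.72 and MS4A1 4.15 and 5.16, all in the weaker part of the list or near its middle. EBF1, a factor that specifies the lineage, had 11 suckling-only peaks among 21 and 4 newborn-only among 14. Over the list 37 of 92 suckling links (40.2%, 30.8 to 50.4) were suckling-only, which fell to 31.9% at equal length, while 25.4% of newborn links were newborn-only, or 33.8% at equal length. The interval of the first value holds the 32.0% of all genes.

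Among macrophage genes TIMD4 was the 1 gene of 16 with a change of promoter state. Its suckling peak (chr16:66253289-66253628), 100 bp from the start site, was weak, at 6.37 and 5.37, and none of its 6 suckling and 2 newborn linked peaks had an overlap. C1QA, a chain of complement C1q, had 3 suckling-only peaks among 4 and 0 newborn-only among 1, and the strongest of them (chr6:80573907-80574346) had 21.4 and 42.4 with an IDR of 0.00209. SIGLEC1, the sialoadhesin of resident macrophages, had 4 of 8 against 0 of 4. MARCO and CD163 had no promoter peak at either age, and CSF1R, CD68 and CD14 had promoter peaks at both. Shares over the list were 23.1% of newborn and 30.1% of suckling links, near those of all genes, or 27.3% and 27.4% at equal length. In the antigen presentation list 0 of 19 genes changed promoter state, and NLRC5, the activator of class I genes, had 8 suckling-only peaks among 19 against 4 newborn-only among 15.

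Blood stem cell, progenitor and megakaryocyte genes divided. A promoter peak was called in newborn liver alone for 1 gene of the list and in suckling liver alone for 1, ITGA2B, the platelet integrin, at 17.2 and 8.69. Of the linked peaks 26.3% of newborn and 38.6% of suckling ones were of 1 age, or 31.8% and 30.9% at equal length. RUNX1 had 17 suckling-only peaks among 32 and 4 newborn-only among 20, and FLI1 15 of 32 against 7 of 23. ERG had 12 of 24 against 4 of 16. MEIS1, a homeobox partner of stem cells, had the opposite order, with 3 suckling-only of 23 and 9 newborn-only of 29. MYB had 0 of 7 against 2 of 9. RUNX1, FLI1 and ERG also act in lymphocytes or endothelium, and the list alone does not tell which cells carried the peaks.

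**Figure D2:**
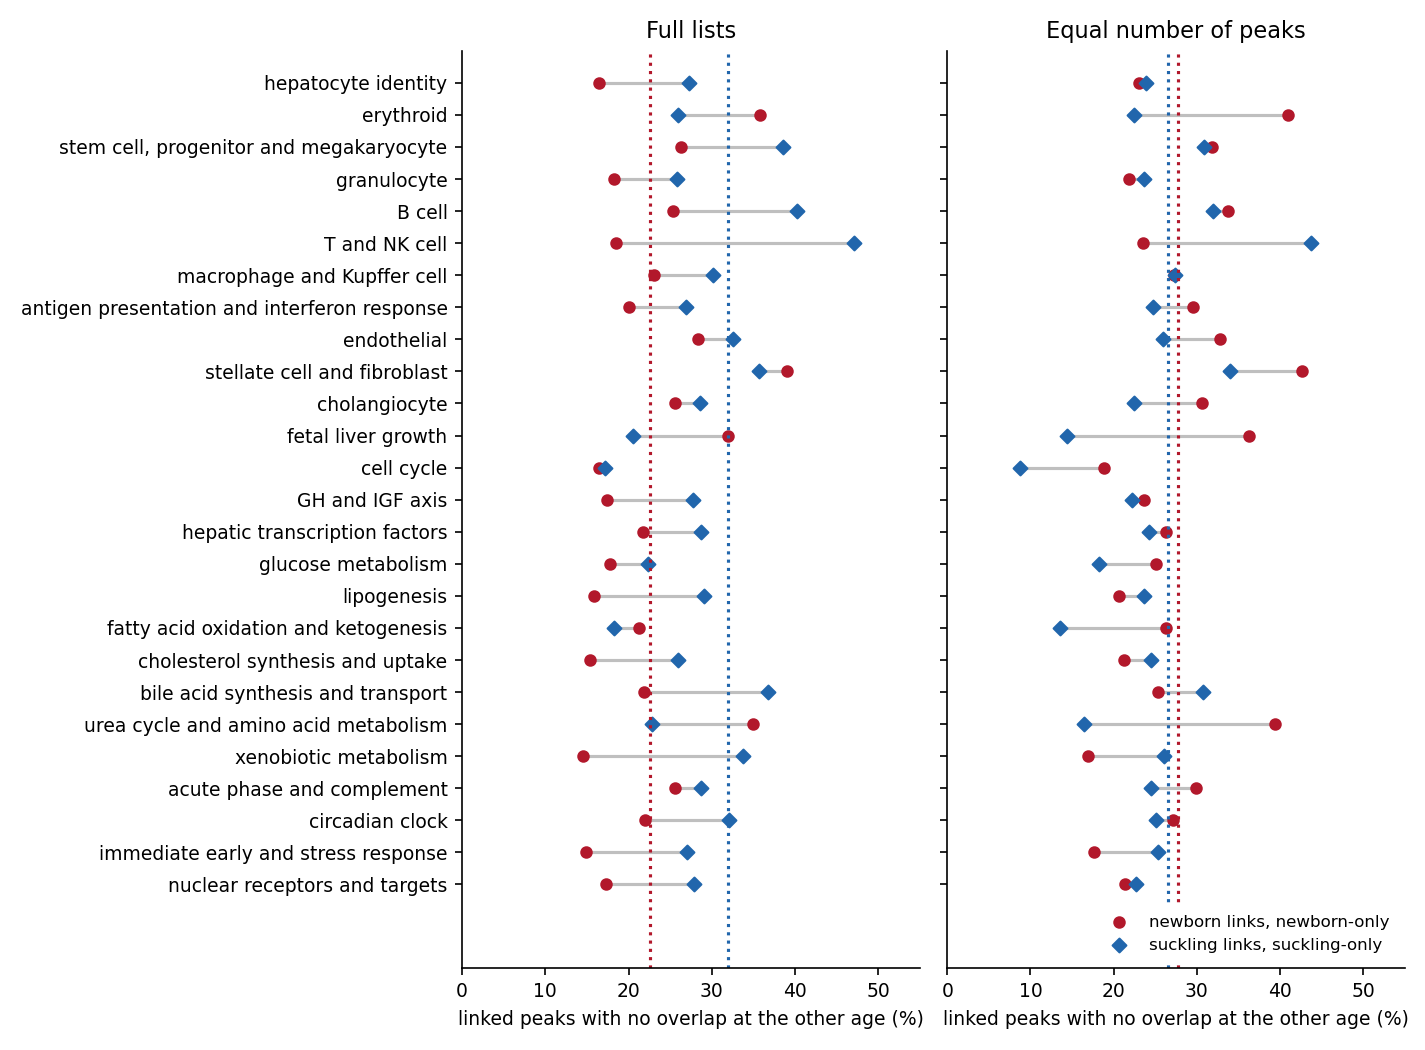
Share of linked peaks (%, x axis) that had no overlap at the other age for the 26 gene lists, with newborn-only shares of newborn links as circles, suckling-only shares of suckling links as diamonds, and dotted lines for all genes. On the left, with full lists, T and NK cell genes stood at 18.5% and 47.1% and erythroid genes at 35.8% and 26.0%, and on the right, with an equal number of peaks, at 23.5% and 43.7% and at 41.0% and 22.5%.

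Because spleen of the newborn pigs was also assayed, and spleen holds immune cells and, around birth in many mammals, red cell precursors, each liver peak was looked up in the newborn spleen list. Of the 62 newborn-only peaks linked to erythroid genes, 39 (62.9%, 50.5 to 73.8) overlapped a newborn spleen peak, against 22.3% of newborn-only peaks over all genes. Of the 39 suckling-only peaks of the same genes, 6 (15.4%, 7.25 to 29.7) did. Of the 89 suckling-only peaks of T and NK cell genes, 39 (43.8%, 34.0 to 54.2) overlapped one, against 15.1% over all genes. The newborn-only peaks of these genes had a similar share, 9 of 22 (40.9%, 23.3 to 61.3). The spleen shares of newborn-only and suckling-only peaks thus lay far apart for erythroid genes and close together for T and NK cell genes. Stellate cell and fibroblast genes also had newborn-only peaks that were called in spleen, 23 of 45 (51.1%). These peaks were not particular to spleen, since 46.7% of the 45 overlapped a peak in each of heart, kidney and lung. For the erythroid newborn-only peaks these shares were 22.6%, 24.2% and 16.1%. Over the whole lists 21.5% of newborn-only and 14.3% of suckling-only peaks overlapped a spleen peak, and 50.4% and 42.5% overlapped a peak of at least 1 of heart, kidney, lung, muscle and spleen, against 78.9% and 78.5% of peaks with an overlap. Spleen was assayed at the newborn age alone here, and the cells that carried the peaks were not identified.

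**Figure D3:**
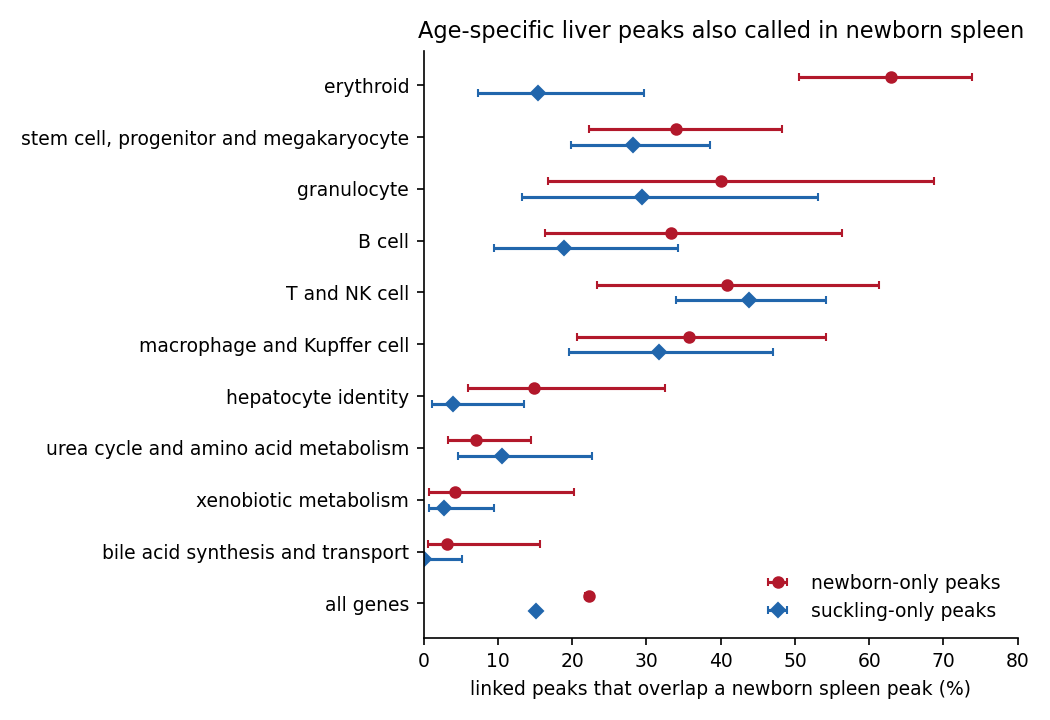
Share (%, x axis) of newborn-only (circles) and suckling-only (diamonds) liver peaks linked to genes of 10 lists, and to all genes, that overlapped a newborn spleen peak, with 95% Wilson intervals as bars. Erythroid newborn-only peaks lay at 62.9% and T and NK cell suckling-only peaks at 43.8%, against 22.3% and 15.1% over all genes, and bile acid suckling-only peaks at 0.

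Of 19 hepatocyte identity genes with a promoter peak, 1 changed promoter state. Over all PCGs 2.71% had a promoter peak in newborn liver alone and 4.32% in suckling liver alone. Counts of 0 or 1 in lists of this size, here and elsewhere, are near these shares and do not show that a list was stable. ALB had a suckling peak over its start (chr8:69643150-69643594) of 18 and 8.87, and no newborn peak was called in its promoter window, although 15 newborn peaks were linked to the gene and 13 of them had an overlap at day 28. The IDR of the ALB promoter peak was 0.372. A further suckling-only peak in an ALB intron (chr8:69653646-69653921) had 11.8 and 12.6. APOH, a plasma glycoprotein, had 7 suckling-only peaks among 13 and 1 newborn-only among 6, and APOB, the core protein of liver lipoproteins, 7 of 21 against 2 of 16. The whole list stood at 16.4% of newborn and 27.3% of suckling links, both below all genes, and at 23.0% and 23.9% at equal length. Of the hepatic transcription factors, 0 of 22 changed promoter state, and ZBTB20, a repressor of alpha-fetoprotein after birth, had 27 suckling-only peaks among 77 and 11 newborn-only among 60. The list of these factors stood at 21.8% and 28.7%, or 26.3% and 24.2% at equal length, each below all genes.

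Genes of fetal liver growth held newborn-only peaks. Of 135 newborn links 31.9% (24.6 to 40.1) were newborn-only, and of 122 suckling links 20.5% (14.3 to 28.5) were suckling-only, or 36.3% and 14.4% at equal length. TRIM71, an RNA-binding protein of embryonic cells, had 8 newborn-only peaks among 16 and 0 suckling-only among 9. LIN28B, which blocks maturation of let-7, had 8 of 11 against 2 of 5, and AFP, the fetal counterpart of albumin, 3 of 9 against 0 of 6. The strongest at LIN28B (chr1:71287564-71287954), in an intron, had 77.3 and 29.2 and an IDR of 0.0309, and the strongest at TRIM71 (chr13:18815245-18815698), in an exon, had 82.0 and 14.6 and an IDR of 0.0468. PEG10, a paternally expressed imprinted gene, had a newborn-only promoter peak of 14.1 and 4.17. DLK1, another imprinted gene, had a suckling-only one of 3.29 and 5.82 that was lost at equal length. IGF2 had promoter peaks at both ages, but the peak centred 8 bp from a start site (chr2:1495892-1496619) was suckling-only, at 33.5 and 34.4, with an IDR of 0.00229, and was the second strongest suckling-only promoter peak at a named gene.

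Metabolic genes differed by pathway rather than as a group. Urea cycle and amino acid genes had 86 newborn-only peaks among 246 newborn links (35.0%, 29.3 to 41.1) and 47 suckling-only among 206 suckling links (22.8%, 17.6 to 29.0), or 39.4% and 16.4% at equal length. CPS1 made up the largest part of the difference. It encodes the first enzyme of the urea cycle and had 29 newborn-only peaks among 45 and 6 suckling-only among 24. CPS1 had the largest newborn excess of any named PCG and had no promoter peak at either age. Its strongest newborn-only peak, in an intron (chr15:113304840-113305018), had 10.4 and 8.94, the medians of the 29 peaks were 6.33 and 5.05, and 0 of the 29 reached an IDR of 0.05, so the excess was made of many weak peaks. ASS1, the argininosuccinate synthase of the same cycle, had 10 of 21 against 4 of 15, and CTH, an enzyme of cysteine synthesis, 5 of 10 against 0 of 5. ARG1, the last enzyme of the cycle, had 1 of 10 against 4 of 13. Of the 24 genes with a promoter peak, 24 had one at both ages.

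Xenobiotic genes had the opposite pattern, with 24 of 166 newborn links (14.5%, 9.91 to 20.6) newborn-only and 73 of 216 suckling links (33.8%, 27.8 to 40.3) suckling-only, or 16.9% and 26.1% at equal length. The suckling share was thus near that of all genes at either length, while the newborn share was lower. The cytochromes P450 of the CYP3A cluster on chromosome 3 had 0 newborn-only peaks among 2 at CYP3A29, 0 among 4 at CYP3A22 and 0 among 2 at CYP3A46. They had 10 suckling-only peaks among 12, 7 among 11 and 3 among 5, and neighbouring genes of the cluster can share a linked peak. The strongest, intergenic and 7.92 kb from the CYP3A22 start (chr3:6609048-6609661), had 40.4 and 35.3 and an IDR of 0.00257. CYP2E1, which oxidises ethanol, had 5 of 8 against 0 of 3, and UGT1A6, a glucuronosyltransferase, 6 of 20 against 0 of 13. FMO1, a flavin monooxygenase, had 4 newborn-only peaks among 8 and 0 suckling-only among 4, and EPHX1, the microsomal epoxide hydrolase, had a newborn-only promoter peak of 16.9 and 13.9.

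Bile acid genes had 70 suckling-only among 190 suckling links (36.8%, 30.3 to 43.9) and 32 newborn-only among 146 newborn links (21.9%), or 30.7% and 25.3% at equal length. SLCO1B3, a hepatic uptake transporter, had 14 suckling-only peaks among 21 and 2 newborn-only among 9. ABCC2, the canalicular exporter of conjugates, had 10 of 21 against 4 of 15, and KLB, the coreceptor for FGF19, 6 of 10 against 1 of 5. NR0B2, a repressor of bile acid synthesis, had 3 of 5 against 0 of 2, and its strongest peak, in a promoter (chr6:84224120-84224469), had 16.4 and 22.2 and an IDR of 0.00661. CYP7A1, the rate-limiting enzyme of bile acid synthesis, had 1 of 3 against 2 of 4. Most of these metabolic peaks were not called in other organs. Of the suckling-only peaks, 64 of 70 (91.4%) of bile acid genes and 62 of 73 (84.9%) of xenobiotic genes overlapped no peak of the 5 newborn tissues, as did 74 of 86 (86.0%) newborn-only peaks of urea cycle and amino acid genes, against 56.9% and 49.1% of the suckling-only and newborn-only peaks of all genes.

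In the growth hormone and insulin-like growth factor axis 0 of 19 genes changed promoter state. The list stood at 17.4% of newborn and 27.7% of suckling links, or 23.7% and 22.2% at equal length. Each share lay below that of all genes, so the members named next do not stand for the list. GHR, the growth hormone receptor, had 18 suckling-only peaks among 49 and 5 newborn-only among 34, and the strongest (chr16:27370199-27370586), in an intron, had 18.5 and 24.3 and an IDR of 0.00501. IGF1R had 16 of 47 against 2 of 33. IGF1 itself had 5 of 25 against 4 of 22, a difference of 1 peak. Genes of fat synthesis had shares of 15.8% and 29.1%, or 20.7% and 23.6% at equal length, each also below that of all genes. They included ACACA, the acetyl-CoA carboxylase, with 16 of 30 against 3 of 16, and GPAM, the first acyltransferase of triglyceride synthesis, with 8 of 13 against 0 of 4, while FASN had 1 of 9 against 2 of 10. PNPLA3, a lipid droplet enzyme, had a newborn-only promoter peak of 3.82 and 6.58. Fatty acid oxidation and ketogenesis genes had 0 of 20 changes of promoter state and shares of 21.2% and 18.2%, or 26.3% and 13.6% at equal length. Cell cycle genes had 0 of 18 changes and shares of 16.5% and 17.2%, or 18.8% and 8.75% at equal length.

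Stellate cell and fibroblast genes had many peaks of 1 age on both sides, 39.1% (30.7 to 48.3) of 115 newborn links and 35.7% (27.5 to 44.7) of 115 suckling links, or 42.6% and 34.0% at equal length. LHX2, a homeobox factor of stellate cells, and NES, which encodes nestin, had newborn-only promoter peaks of 76.0 and 7.99 and of 21.7 and 8.34. PDGFRB had 4 newborn-only among 9 against 1 suckling-only among 6, and FBLN1, a matrix protein, 2 of 12 against 9 of 19. Bile duct genes as a list stood near all genes, at 25.6% of newborn and 28.6% of suckling links, or 30.6% and 22.4% at equal length. Of 14 such genes with at least 5 linked peaks, 5 had more suckling-only and 4 more newborn-only peaks. CFTR, the chloride channel of bile duct cells, had 8 newborn-only among 14 and 1 suckling-only among 7, and its strongest newborn-only peak (chr18:28681820-28682189) had 173 and 15.5 and an IDR of 0.0363. AQP1, a water channel of bile duct and endothelial cells, had a newborn-only promoter peak of 21.9 and 10.9. Of endothelial genes, WNT9B had a newborn-only promoter peak of 21.9 and 7.32 and FCGR2B, an Fc receptor of sinusoidal cells, a suckling one of 7.25 and 8.69 that overlaps a newborn peak lying outside the promoter window.

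The remaining promoter states of listed genes were few. Of acute phase and complement genes, C8B and FCN2 had newborn-only promoter peaks of 80.7 and 6.56 and of 21.6 and 4.29, and SAA3 and C5 suckling ones of 8.18 and 5.79 and of 5.22 and 7.37. The SAA3 peak overlapped a newborn peak outside the promoter window. Of immediate early and stress genes, FOSL1 and JUNB had suckling-only promoter peaks of 6.36 and 8.17 and of 4.42 and 6.81, and MT1A, a metallothionein, a newborn-only one of 38.0 and 7.72. CYP24A1, which degrades vitamin D, had a newborn-only one of 12 and 9.73. No gene of the lists for glucose metabolism, cholesterol, or the circadian clock changed promoter state, and PER3 alone of them was newborn-only at equal length. Replicate 1 had the higher value at most of the newborn promoter peaks named, as at 79.8% of all newborn peaks, with MMP9 among the exceptions.

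**Figure D4:**
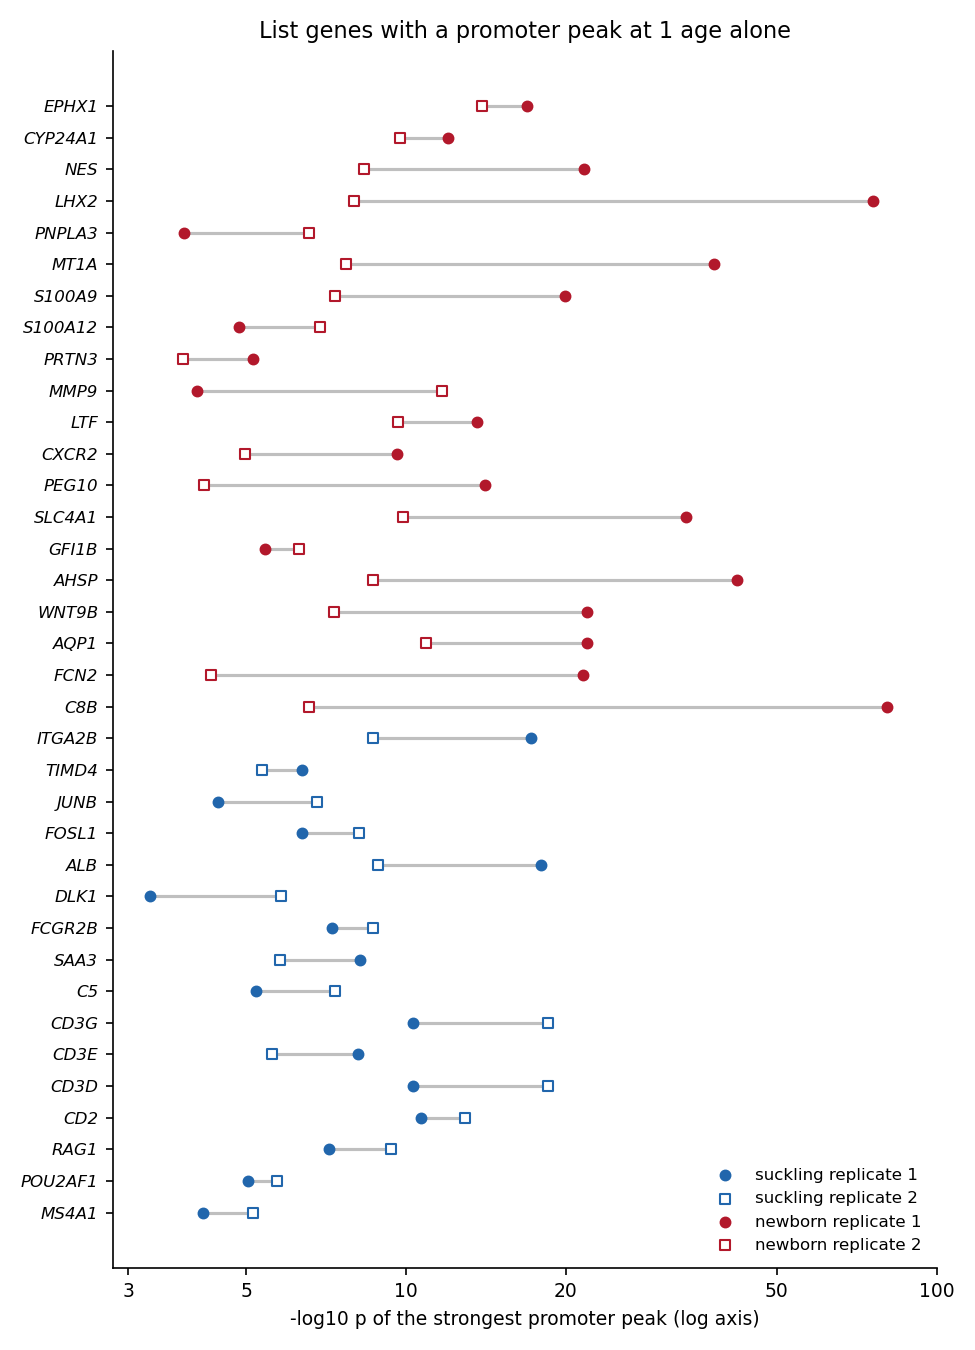
The −log10 p (x axis, log scale) of the strongest promoter peak in each replicate for the reported list genes whose promoter peak was called at 1 age alone, newborn in red and suckling in blue, replicate 1 filled and replicate 2 open. The newborn replicates lay far apart at genes such as C8B (80.7 and 6.56) and AHSP (42.1 and 8.68), and the suckling replicates lay close at CD2 (10.7 and 12.9) and POU2AF1 (5.04 and 5.72).

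Outside the lists, the strongest promoter peaks of 1 age were at genes of many kinds. In newborn liver the strongest at a named gene was at SYT6, a synaptotagmin, with 205 and 34.5 and an IDR of 0.00708 (chr4:106435959-106436739). Others were at STRA8, a factor of meiotic entry, with 40.1 and 22.6, at HKDC1, a hexokinase domain protein, with 107 and 19.6, at HTT, which encodes huntingtin, with 107 and 18.9, and at LDHD, the D-lactate dehydrogenase, with 184 and 18.4. MUC13, a membrane mucin of epithelia, had 27.4 and 18, and HTR1A, a serotonin receptor, 18.4 and 19.8. PCSK2, HTR1A and MUC13 had no promoter peak at day 28, while SYT6, ANKRD6, STRA8, NFE2, HKDC1, HTT and LDHD had another one. In suckling liver the strongest was at CERK, the ceramide kinase, with 34.1 and 48.1 and an IDR of 0.00100 (chr5:2816956-2817232). It was followed by IGF2 and by AADAT, an aminotransferase of lysine and kynurenine breakdown, with 30.9 and 49.3, and AADAT had no promoter peak in newborn liver. EPHB3, an ephrin receptor, had 28.4 and 53.9, PLIN4, a lipid droplet coat protein, 26.8 and 36.0, and GLDN, gliomedin, 25.9 and 46.9. A peak shared by CNOT6L and MRPL1 had 26.2 and 24.4, SLC16A5, a monocarboxylate transporter, 21.9 and 21.4, and PTAFR, the receptor of platelet-activating factor, 22.6 and 21.3. SST also stood among the 10. The 10 suckling peaks all had an IDR of 0.01 or lower, and of the 10 newborn peaks SYT6, HKDC1, HTT and LDHD were below 0.05.

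By the number of linked peaks, the newborn side was led, after CPS1, by SAMD5 with 15 newborn-only against 1 suckling-only, ADAMTS12, a matrix protease, with 20 against 7, FNDC3B with 26 against 13, BCL11A, DLGAP1 with 15 against 4, GLIS3, a zinc finger factor, with 18 against 7, and PDZRN3 with 13 against 2. The strongest newborn-only peak in GLIS3 (chr1:217947294-217947936) had 333 and 30.2 and an IDR of 0.00759. The suckling side was led by PTPRN2 with 42 suckling-only among 47 and 1 newborn-only among 6, NEBL with 30 of 49 against 1 of 20, GRID1 with 30 of 37 against 3 of 10, and KIRREL3 with 31 of 43 against 5 of 17. ZNF536, FSTL4, OPCML and AFF3 followed, with 27 of 33, 31 of 38, 30 of 40 and 30 of 45. These are long genes, 355 to 1103 kb on the suckling side, and several are best known from neurons. Their peaks were weak, with 0 of 42 at PTPRN2 below an IDR of 0.05 and 6 of 30 at NEBL, and at equal length the PTPRN2 count fell to 23 and the GRID1 count to 15, while NEBL kept 27.

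Words in the DNA under the peaks differed between the ages. They were counted within 100 bp of the summit, outside promoters, in 26441 newborn-only and 43961 suckling-only peaks. The GATA word AGATAAG, the core bound by red cell GATA factors and others, was in 4.92% (4.67 to 5.19) of newborn-only and 2.07% (1.95 to 2.21) of suckling-only peaks, against 3.81% of newborn peaks with an overlap. The composite TAL1-GATA word was in 1.19% and 0.503%. The liver words were also more frequent in newborn-only peaks, with the HNF1 word TTAATNATT in 1.22% and 0.469%, the HNF4 word CAAAGTCCA in 0.934% and 0.414%, the FOXA word TGTTTAC in 4.74% and 2.31%, and the CEBP word TTGCNNAA in 12.4% and 7.11%. For these liver words suckling-only peaks lay below peaks with an overlap, of which 1.36%, 1.15%, 5.07% and 11.9% held them in newborn liver. The RUNX word TGTGGTT had the opposite order, at 4.33% (4.09 to 4.58) and 5.19% (4.99 to 5.40), as did the KLF word CCACACCC at 2.67% and 3.21% and the SREBP word TCACNCCAC at 0.847% and 1.10%. Apart from these and, by little, the SPI1 word GAGGAAGT (2.16% and 2.23%), all of the 24 words were more frequent in newborn-only peaks. The excess was thus not particular to GATA and liver words. The CRE word TGACGTCA was in 0.299% and 0.125%, and the TEAD word ACATTCCA in 1.34% and 0.660%.

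Base composition moved with these shares. The median GC content of the windows was 49.8% in newborn-only, 54.2% in suckling-only and 52.2% in newborn peaks with an overlap. In windows split by GC content into the lowest, middle and highest of 3 classes, AGATAAG was in 6.45%, 4.43% and 2.87% of newborn-only and 4.16%, 2.14% and 0.808% of suckling-only peaks, so the order held in each class. RUNX also kept its order, with 4.93%, 4.83% and 2.69% against 6.92%, 6.04% and 3.46%. KLF did not, with 1.48%, 3.07% and 4.25% against 2.06%, 3.04% and 4.03%, nor did SREBP, which stood at 1.37% against 1.32% in the highest class. By overlap with newborn spleen, the composite TAL1-GATA word was in 2.57% (2.18 to 3.02) of newborn-only peaks that overlapped a spleen peak and in 0.784% (0.648 to 0.948) of those that overlapped none of the 5 tissues. In suckling-only peaks RUNX was in 9.12% (8.42 to 9.88) and 4.89% (4.64 to 5.16) of these classes, and the SPI1 word GAGGAAGT, of a factor of macrophages and B cells, in 6.02% (5.45 to 6.65) and 1.68% (1.53 to 1.85). The GATA words were thus densest in newborn-only peaks open in spleen, and the RUNX and SPI1 words in suckling-only peaks open in spleen. HNF4 went the other way, in 0.364% of newborn-only peaks open in spleen and 1.24% of those called in none of the 5 tissues.

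**Figure D5:**
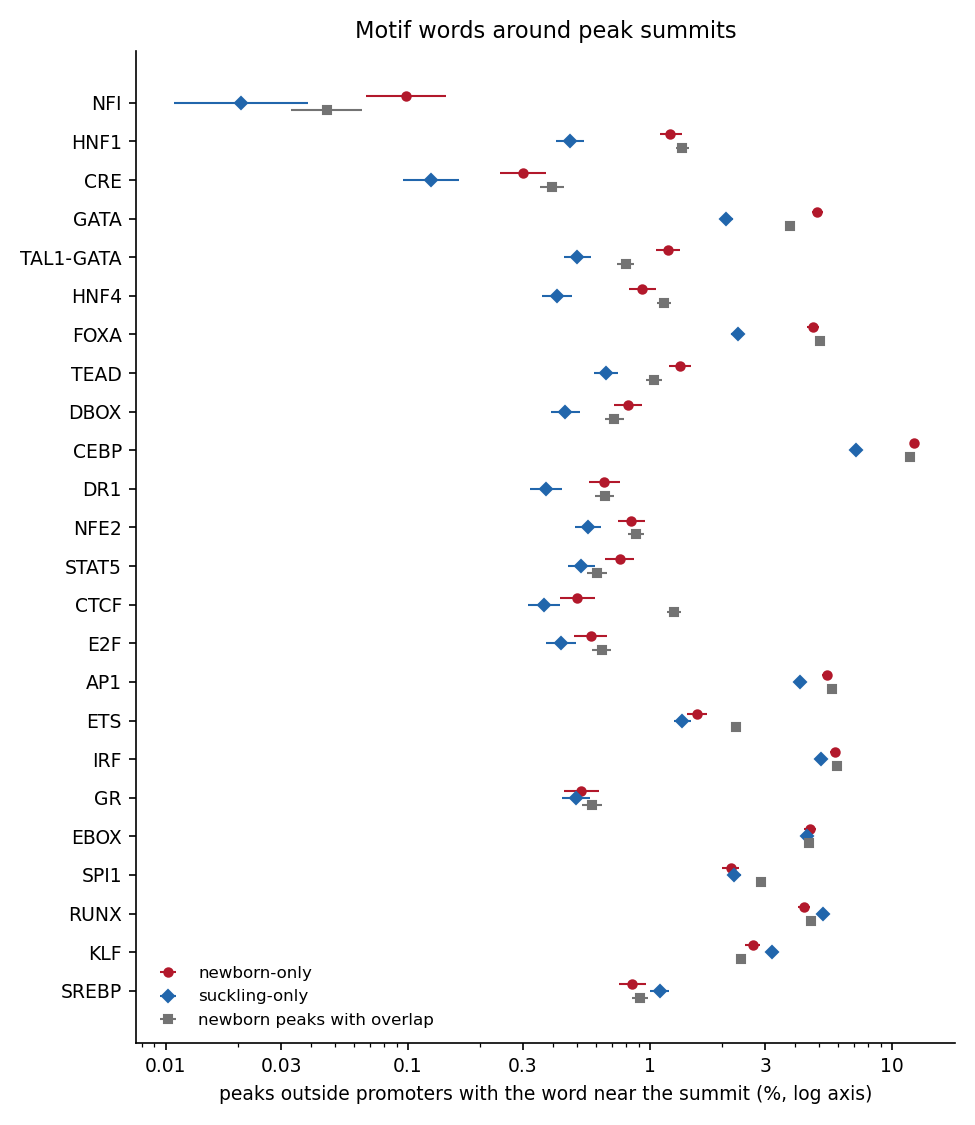
Share of peaks outside promoters (%, x axis, log scale) that held each of 24 motif words within 100 bp of the summit, in newborn-only peaks (circles), suckling-only peaks (diamonds) and newborn peaks with an overlap (squares), with 95% Wilson intervals. Points for GATA lay at 4.92%, 2.07% and 3.81%, and for RUNX at 4.33%, 5.19% and 4.64%.

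Peaks called at both ages were compared by rank, since the replicate values are not on a common scale. Each value was turned into a percentile of its own list, and a pair of overlapping peaks was set apart when both suckling ranks lay above, or both below, both newborn ranks. Of 15824 promoter pairs 4423 (28.0%) were higher and 1811 (11.4%) lower in suckling liver, and with ranks taken among all 85357 shared pairs alone 19% and 18.4%. The excess of higher pairs was thus no longer seen when the shared pairs alone were ranked, and the counts for the lists are given on that ranking. T and NK cell genes had 6 of 17 pairs higher and 0 lower, antigen presentation genes 9 of 23 and 4, xenobiotic genes 5 of 41 and 5, and hepatic transcription factors 6 of 54 and 14. Genes of fetal liver growth had 1 of 17 and 9. Pairs with replicate summits within 100 bp of the listed summit at both ages, a restriction taken up below, were fewer. Among these, T and NK cell genes had 3 of 9 higher and 0 lower, and antigen presentation genes 6 of 16 and 1. Xenobiotic genes had 5 of 31 and 5, hepatic transcription factors 3 of 45 and 13, and fetal liver growth genes 1 of 9 and 4. By percentile of the whole list, the pairs with the largest shifts were at TCTEX1D2, EXO1, UBA7, ELL3 and NCR3, higher in suckling liver, and at USP4, the start shared by HNRNPH3 and PBLD, TRIM35, FH and SMIM20, higher in newborn liver. TCTEX1D2 had percentiles of 0.768 and 2.28 in newborn and 99.8 and 99.6 in suckling liver, and USP4 97.8 and 97.0 in newborn and 1.05 and 1.16 in suckling liver.

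These shifts did not come with a change in width. All 10 pairs were peaks of 981 to 2419 bp at both ages, and at the age with the low rank the replicate summits lay 281 to 656 bp from the summit listed, against 41 bp or less at the age with the high rank. Of all peaks over 1000 bp wide in the lowest quartile of the list 86.7% in newborn and 89.3% in suckling liver had summits displaced by over 100 bp. Among the pairs with summits within 100 bp at both ages, a restriction chosen after seeing the data, 30.2% were higher and 12.2% lower, or 20.1% and 19.6% with these pairs ranked alone. By percentile of the whole list the largest shifts up among them were at MS4A7, a membrane protein of macrophages, the start shared by FSD1 and TMIGD2, TACC1, NRG2 and IL12RB1, a receptor chain for interleukin 12. The largest shifts down were at IGSF23, XPO7, DNAJB3, SLC1A2, a glutamate transporter, and TWIST2, a factor of mesenchyme. MS4A7 had percentiles of 11.7 and 22.2 in newborn and 80.4 and 89.5 in suckling liver. XPO7, an exportin of maturing red cells, had 85.2 and 77.4 in newborn and 3.96 and 38.8 in suckling liver.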

How the data were processed

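ATAC-seq peaks of newborn and suckling liver were taken from 2 of the 8 consensus peak lists, and the newborn lists of heart, kidney, lung, muscle and spleen were used for overlap. Per the submitters' processing notes and the study's methods, reads were aligned to Sscrofa11.1 with Bowtie2, filtered with SAMtools 1.3.1 and peaks were called per replicate with MACS2, and the 2 replicates of each group were matched by IDR into 1 list. The −log10 p values deposited by the authors are given for each replicate and, as the lower of both, for the peak, and they grow with library depth. The score deposited by the authors is a scaled IDR, on which 540 stands for an IDR of 0.05. Depth is not held in the lists, and no authors' comparison was used.

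Peaks on chromosomes 1 to 18 were intersected with a minimum overlap of 1 bp, assigned to promoters, exons, introns or intergenic sequence of RefSeq PCGs, and linked to genes, with Python 3.11.15, numpy 2.4.6, pandas 2.3.3, scipy 1.17.1 and matplotlib 3.10.9. Each group was 1 merged list of calls from 2 libraries, and no test was run on calls or on replicate values. Peaks were ranked by their −log10 p. Intervals are Wilson intervals, and the replicates are separate pigs. The procedures were checked on simulated peaks. Named genes were the list members with a promoter peak at 1 age or the most linked peaks of 1 age (up to 4 per list), the 10 strongest promoter peaks of each age, the 8 genes with the largest peak excess, and the 5 largest rank shifts, each in both directions. Other list members are given for context. The gene lists, members and rules were chosen with earlier results of these data known. Genes with 2 annotated copies under 1 symbol (B2M, C4BPA, TF) were pooled. Alternatives were an equal number of peaks, the 50000 strongest peaks, an IDR of 0.05 or lower, and other overlap and promoter definitions. Further ones were the merged peaks with the bounds from 1 replicate alone, and gene links restricted to promoters and bodies. Of 547 list entries 31 did not match and were not used here, and some matched members are counted but not reported here by name.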

Additional observations from a re-analysis of the deposited data

Results flagged for a closer look

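Peaks on chromosome Y lay outside the comparison of chromosomes 1 to 18. The newborn liver list held 16 and the suckling liver list 19, although all libraries are labelled female. Of these, 1 newborn and 5 suckling peaks had an IDR of 0.05 or lower, and 14 in each list started in the first 7 Mb of the chromosome. Their origin was not tested.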

How the results depend on the processing

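No paired analysis was possible because the ages came from different pigs, the replicates had been merged into 1 list per age, and no test was run. With the 50000 strongest peaks of each list, with an IDR of 0.05 or lower required in both lists, and with an IDR of 0.05 or lower required in the list itself, newborn-only peaks numbered 15538, 4288 and 522, and suckling-only peaks 15387, 27868 and 2101. PCGs with a promoter peak in newborn liver only numbered 1421, 976 and 13 under these settings and 750 at equal length, and in suckling liver only 1749, 3101 and 46. With the merged peaks of an age given the bounds from 1 replicate alone, there were 28313 to 28627 newborn-only and 46522 to 47380 suckling-only peaks. PCGs numbered 370 to 423 and 602 to 672. Every peak kept here had already been matched in both replicates, so this setting cannot show dependence on 1 library. A minimum overlap of 50% gave 28810 and 47197 peaks and a distance of 500 bp gave 23283 and 40494. Both were not run for PCG promoters, whose state does not use overlap between peaks. A narrower promoter gave 457 and 517 PCGs. The newborn minus suckling difference in motif share, in percentage points, reversed for IRF to -1.14 (strongest peaks), -1.82 (IDR in both) and -3.59 (IDR in the list itself), for STAT5 to -0.0748 (strongest peaks) and -0.292 (IDR in both), and, with IDR in the list itself, for NFE2 to -0.159, NFI to -0.151 and DBOX to -0.167. Those of NFE2, NFI and DBOX are each smaller than the weight of 1 peak among the 522 newborn-only peaks of that setting. The cause of the reversals was not tested. T and NK cell genes had the highest or joint highest median balance of the 26 lists except with IDR in the list itself. There it was 0.071 over 4 genes, against 0.156 over 2 stellate cell genes. The T and NK cell median rested on 8 genes with the strongest peaks and on 4 with IDR in both, so these orders are uncertain. The median over all genes was 0.333 with IDR in both, where the erythroid median turned from -0.040 to 0.429, the latter over 7 genes. With IDR in both, 0 erythroid and 0 granulocyte genes had a promoter peak in newborn liver alone and 3 and 3 in suckling liver alone. With IDR in the list itself 0 erythroid and 0 granulocyte genes were newborn-only and 3 T and NK cell genes suckling-only. The added settings for ranks were chosen after seeing the data. What depth limits was not tested.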
